A study of Mus musculus with 371 samples.

Results

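The transcripts of 10 heat shock proteins and chaperones were followed across single T cells sorted from mouse tumours. They are 10 of the 23362 genes with a unique symbol in the deposited table. They were chosen by name, with earlier results of these data known. Hspa1a, Hspa1b and Dnajb1 are the stress-induced members. Hsp90aa1, Hsp90ab1, Hsp90b1, Hspa8, Hspa5, Hspd1 and Hspe1 are the 7 constitutive members. The cells came from B16F10 melanoma, a transplantable mouse tumour line, grown in C57BL/6 mice that were either Il27ra KO (germline loss or another kind of deletion is not stated) or wild type (WT). Il27ra encodes the receptor chain specific for the cytokine IL-27, and the comparison of KO with WT asks which transcripts of tumour T cells depend on it. Each cell's title gives its genotype and a CD4 or CD8 sort, while the treatment text of the labels mentions the CD8 sort alone. With at least 1000 genes at 1 FPKM (fragments per kilobase of transcript, scaled to the size of the library) required, 89 of 93 KO CD4, 85 of 94 WT CD4, 86 of 90 KO CD8 and 90 of 94 WT CD8 cells were kept, 350 in all. Every group was treated as 1 pool, because all its cells carry 1 name and the labels state neither the number of mice nor whether their cells were combined. What comes from the pool cannot be told apart from what comes from the genotype. The last part of a title is p2 for CD4 cells and p1 for CD8 cells of either genotype, so whatever that mark stands for cannot be told apart from the sort. No test between groups was made, and spreads are between cells of 1 pool.

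Chaperones bind unfolded or partly folded proteins and let them reach, or return to, their folded state. The HSP70 proteins (Hspa genes) hold exposed stretches of a chain in cycles of ATP hydrolysis that J-domain partners (Dnaj genes) start. HSP90 proteins act later, on nearly folded clients such as kinases and steroid receptors. When misfolded protein builds up in the cytosol, heat shock factor HSF1 binds elements in the promoters of inducible chaperone genes, whereas the endoplasmic reticulum uses the unfolded protein response. T cells raise many constitutive chaperones as they are activated and grow, and warming or enzymatic dissociation of tissue can induce Hspa1a, Hspa1b and Dnajb1.

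The libraries differed in ways that bear on these values. KO CD4 cells had a median of 1868 genes at that level, WT CD4 cells 1661, KO CD8 cells 1955 and WT CD8 cells 2148. Read counts were not used here. The spacing of low values put the median library at 482968 to 517632 counted fragments, where 1 read is worth between 0.559 FPKM for Hspa5 and 2.65 FPKM for the short Hspe1. A gene at 1 FPKM or above is called detected here, which can rest on 1 or 2 reads. The T cell list (6 genes) had 2 or more members in all but 3 of the 350 cells, and no cell of either CD8 sort had Cd4. In the CD4 sort, Cd4 was detected in 87.6% of KO CD4 and 87.1% of WT CD4 cells. Cd8b1 was detected in 21.3% of KO CD4 and 24.7% of WT CD4 cells. With lineage transcripts required, 61 KO CD4, 54 WT CD4, 84 KO CD8 and 83 WT CD8 cells were left. Il27ra was detected in 50.6% of KO CD4, 50.6% of WT CD4, 53.5% of KO CD8 and 51.1% of WT CD8 cells. Which part of the gene the KO allele lacks is not given in the sources used here, so this gene-level value does not check the labels, and KO below means labelled KO. Of 7 melanoma markers, Tyr alone was detected in 95.3% to 100% of cells of every group, at low level: the summed list had a median of 5.37 to 7.81 FPKM. In the median cell, the B cell, myeloid, NK, fibroblast, endothelial and erythroid lists were at 0 in every group and the dendritic list was at 0.6 FPKM or below. Even so, 74 of the 350 kept cells had other cells' markers, meaning 2 or more detected genes of 1 of these lists. Of the melanoma list, 2 or more genes were detected in 11 KO CD4, 15 WT CD4, 15 KO CD8 and 22 WT CD8 cells. With Tyr in nearly every cell, 1 further gene of that list was mostly enough to reach 2. The marker Hba-a1 stood at 607967 FPKM in 1 KO CD4 cell and at 0 in every other kept cell.

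Together the 10 chaperones made up a median of 0.593% of a cell's summed FPKM in KO CD4, 0.594% in WT CD4, 0.610% in KO CD8 and 0.679% in WT CD8 cells. On mean log2(FPKM + 1) Hspa8, the constitutive cytosolic HSP70, led in every group, and Hsp90ab1 came next. Hspa5 ranked next after these in all 4 groups, while the places of the other constitutive members changed between groups. All 7 constitutive members had their highest mean log2(FPKM + 1) in WT CD8 cells, the group with the most detected genes. On mean FPKM this held for 6 of the 7, since Hspa5 averaged 334.5 FPKM in KO CD4, 366.8 FPKM in WT CD4, 202.3 FPKM in KO CD8 and 352.1 FPKM in WT CD8 cells. Among the stress-induced members Dnajb1 (2.999) and Hspa1b (0.28) were also highest in WT CD8 on mean log2(FPKM + 1), and Hspa1a stood at 0.59 in WT CD4 and 0.57 in WT CD8 cells.

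**Figure D1:**
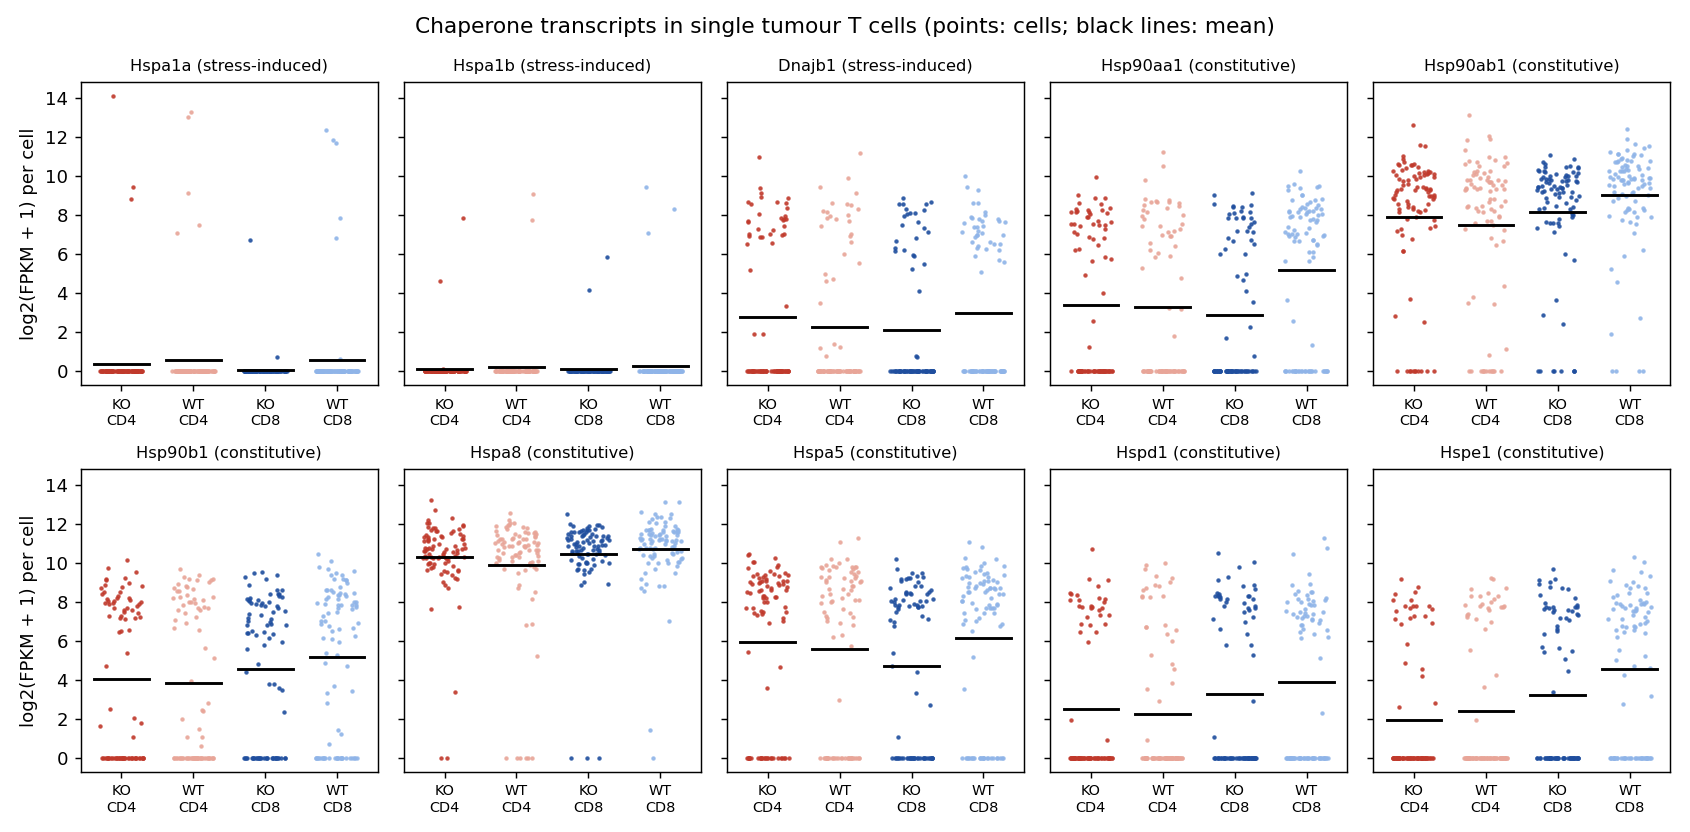
Values of log2(FPKM + 1) in each of 350 cells (points, jittered sideways) for the 10 chaperones, with KO CD4, WT CD4, KO CD8 and WT CD8 cells from left to right and the group mean as a black line. Hspa8 and Hsp90ab1 were present in most cells, the other constitutive members split into cells at 0 and cells near 8, and Hspa1a and Hspa1b were at 0 in nearly every cell with a few cells above 10 for Hspa1a.

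Hspa1a and Hspa1b encode the inducible cytosolic HSP70 and are neighbouring genes with almost the same sequence. In GRCm38 (the mm10 assembly) Hspa1a lies at chr17:34969190-34972156 and Hspa1b at chr17:34956436-34959238, both on the minus strand. Their transcripts share 1716 stretches of 50 bases, which are 58.8% of those in Hspa1a and 62.3% of those in Hspa1b, so how the authors' estimate split reads between the pair is uncertain. No other pair among the 10 shared a stretch of that length. Their promoters are shown because the pair is known to respond together: the 250 bases before each RefSeq start site (GRCm38.p6, minus strand, at chr17:34972157-34972406 and chr17:34959239-34959488) are identical at 98.8% of positions, and differ by C44T, T47C and T249G, with positions counted from the 5′ end of the window and the base of Hspa1a first. Capitals mark the match to a heat shock element core, searched as GAANNTTC or TTCNNGAA, each of which reads the same on both strands.
Hspa1a: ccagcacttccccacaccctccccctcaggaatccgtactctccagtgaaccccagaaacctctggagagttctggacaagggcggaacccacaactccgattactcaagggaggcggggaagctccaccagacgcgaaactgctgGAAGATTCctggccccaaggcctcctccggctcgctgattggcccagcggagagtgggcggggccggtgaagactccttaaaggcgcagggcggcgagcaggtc
Hspa1b: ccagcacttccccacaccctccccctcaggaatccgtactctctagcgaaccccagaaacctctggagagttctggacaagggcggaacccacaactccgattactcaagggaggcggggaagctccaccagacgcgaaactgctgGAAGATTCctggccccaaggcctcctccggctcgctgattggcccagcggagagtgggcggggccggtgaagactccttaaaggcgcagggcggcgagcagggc
A match to either core was present in the same window of 12.8% of 32851 RefSeq promoters. RefSeq promoters were matched for 7 of the 10 genes.

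The inducible pair was seen in few cells but at very high level in some of them. Hspa1a was detected in 3 of 89 KO CD4 cells (3.37%, exact Clopper-Pearson 95% interval 0.701% to 9.54%), 5 of 85 WT CD4 cells (5.88%, 1.94% to 13.2%), 1 of 86 KO CD8 cells (1.16%, 0.0294% to 6.31%) and 5 of 90 WT CD8 cells (5.56%, 1.83% to 12.5%). These intervals, like those below, cover counting error only, and all 4 overlapped. The 3 KO CD4 cells held 17758, 704 and 463 FPKM of Hspa1a. The 5 WT CD4 cells held 10214, 8326, 565, 180 and 134.7 FPKM. The 1 KO CD8 cell held 104.1 FPKM, and the 5 WT CD8 cells held 5320, 3720, 3368, 233.6 and 111.6 FPKM. Levels over 1000 FPKM thus occurred in 6 of 350 cells, which lay in every group except KO CD8.

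Means over a group rested on single cells for this pair. Hspa1a averaged 212.6 FPKM in KO CD4, 228.5 FPKM in WT CD4, 1.22 FPKM in KO CD8 and 141.7 FPKM in WT CD8 cells. Without the highest cell of each group these means were 13.3, 110, 0.00776 and 83.5 FPKM, in the same order. In KO CD4 the highest cell carried 93.8% of the summed Hspa1a of the group. Hspa1b was detected in 2 KO CD4, 2 WT CD4, 2 KO CD8 and 3 WT CD8 cells, at up to 230.6, 536, 56.3 and 707 FPKM in that order. Of the 16 cells with either gene 7 had both, and there Hspa1b held between 1.28% and 35.1% of the summed value of the pair.

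Dnajb1, the inducible J-domain partner of HSP70 (GRCm38 chr8:83608193-83612653, plus strand), was far more often present than the pair. It was detected in 38.2% of KO CD4, 32.9% of WT CD4, 29.1% of KO CD8 and 41.1% of WT CD8 cells. The median cell was at 0 in every group, and the highest cell reached 2067 FPKM in KO CD4, 2372 FPKM in WT CD4, 466 FPKM in KO CD8 and 1047 FPKM in WT CD8. Of these 4 highest cells, those of KO CD4, WT CD4 and WT CD8 also held Hspa1a, at 17758, 8326 and 3368 FPKM. The share with Dnajb1 was close in cells with and without the HSP70 pair, while its mean FPKM was not. In all, 6 of 16 cells with Hspa1a or Hspa1b had Dnajb1 (37.5%, 15.2% to 64.6%), against 35.3% of the other kept cells (30.2% to 40.7%). It averaged 387.3 FPKM in the 16 cells and 74.2 FPKM in the others. The 16 cells include the highest of KO CD4, WT CD4 and WT CD8, at 2067, 2372 and 1047 FPKM. The median cell was at 0 in both sets, and mean log2(FPKM + 1) was 3.45 in the 16 cells and 2.51 in the others. None of the 2 KO CD8 cells with the pair had Dnajb1.

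Among the other chaperones set against the pair, some shares were apart and some close. Hsph1, the HSP110 exchange factor that is also a known heat shock target, was detected in 11 of the 16 cells with the pair (68.8%, 41.3% to 89.0%) and in 21.3% of the other kept cells (16.99% to 26.04%). Hspe1, the mitochondrial HSP10, was detected in 12 of the 16 cells (47.6% to 92.7%) and in 40.4% of the others (35.1% to 45.9%). The shares of Hspd1 (43.8% of the 16 cells and 39.2% of the others), Hspa5 (68.8% and 66.8%), Hsp90b1 (62.5% and 60.8%) and Hspa8 (93.8% and 96.7%) were close. Hsp90aa1 was detected in 10 of the 16 cells (62.5%, 35.4% to 84.8%) and in 50.3% of the others (44.8% to 55.8%). Its mean was 537.8 FPKM in the 16 cells and 110.9 FPKM in the others, and its mean log2(FPKM + 1) 5.78 and 3.62. Hsp90ab1 averaged 2177 FPKM in the 16 cells and 762 FPKM in the others, and Hspa8 3430 and 2019 FPKM. On mean log2(FPKM + 1) Hsp90ab1 stood at 9.83 in the 16 cells and 8.09 in the others. Hspa8 stood at 10.05 and 10.38 on that scale, the other direction from its mean FPKM. The median number of detected genes was 1978 in the 16 cells and 1924 in the others, and the immediate early gene Fos was detected in 56.3% and 52.99% of them. These 16 cells were picked by the values of the pair and come from all 4 groups, so the shares are a description.

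**Figure D2:**
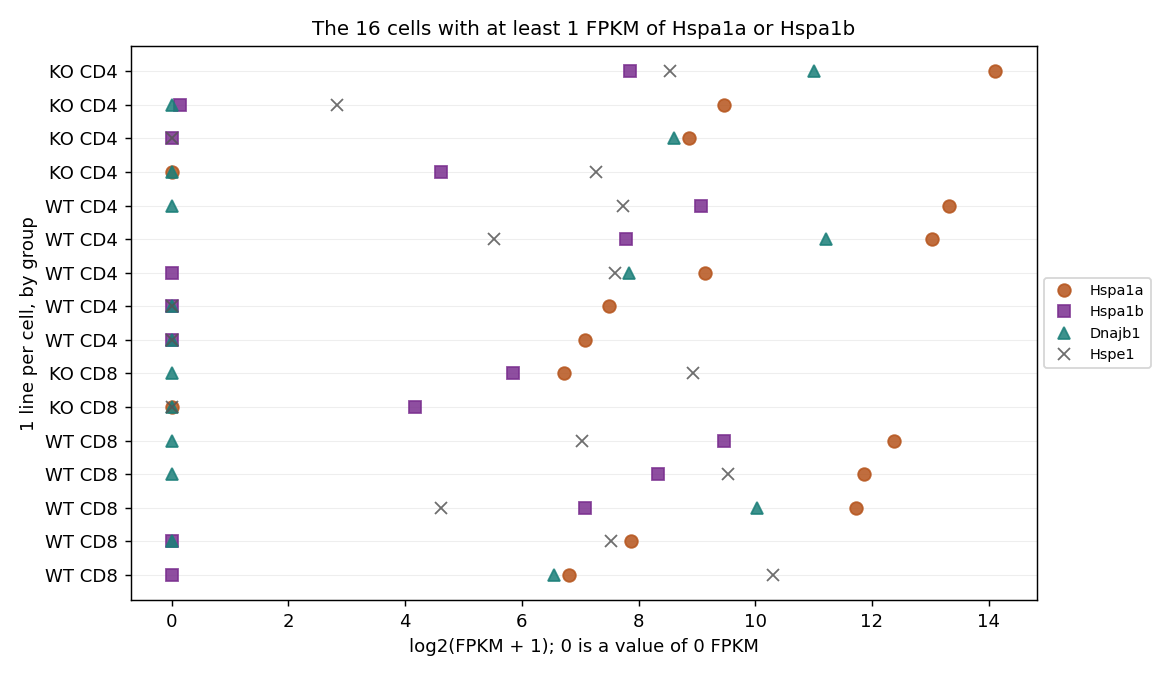
Level, as log2(FPKM + 1), of Hspa1a, Hspa1b, Dnajb1 and Hspe1 in the 16 cells with at least 1 FPKM of Hspa1a or Hspa1b, 1 line per cell, ordered by group from KO CD4 at the top to WT CD8 at the bottom. Hspa1b lay left of Hspa1a in each of the 7 cells with both, and Dnajb1 was above 0 in 6 of the 16 cells.

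A cell with any of the 3 stress-induced members was found in 40.4% of KO CD4 (30.2% to 51.4%), 36.5% of WT CD4 (26.3% to 47.6%), 31.4% of KO CD8 (21.8% to 42.3%) and 44.4% of WT CD8 cells (33.96% to 55.3%). The 4 intervals overlapped. With detection at 5 or 10 FPKM, other filters on cells, or each cell rescaled to a common sum, the share ran from 37.1% to 48.6% in KO CD4, 32.9% to 41.03% in WT CD4, 30% to 34.9% in KO CD8 and 42.6% to 49.2% in WT CD8. Immediate early genes, which rise when tissue is handled, did not follow the same order. The 18 genes of that list summed to a median of 9815 FPKM in KO CD4, 6161 FPKM in WT CD4, 4188 FPKM in KO CD8 and 3601 FPKM in WT CD8 cells. The part of tissue handling in the stress-induced values was not tested.

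Among the constitutive cytosolic chaperones, Hspa8 uncoats clathrin vesicles and folds new chains (GRCm38 chr9:40800984-40810087, plus strand). It was detected in 97.8% of KO CD4, 92.9% of WT CD4, 96.5% of KO CD8 and 98.9% of WT CD8 cells. Its median level was 1551 FPKM in KO CD4, 1824 FPKM in WT CD4, 1913 FPKM in KO CD8 and 2261 FPKM in WT CD8, with highest cells between 5819 and 9731 FPKM. Hsp90ab1, the constitutive HSP90 of the cytosol (chr17:45567775-45573271, minus strand), had medians of 533, 462, 634 and 895 FPKM in the same order. Hsp90ab1 was detected in 87.6% of KO CD4, 83.5% of WT CD4, 90.7% of KO CD8 and 95.6% of WT CD8 cells. Both were thus present in most cells, and their levels in all 4 groups overlapped widely.

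Hsp90aa1, the HSP90 that stress can raise further (chr12:110690605-110702728, minus strand), was unlike them. The lowest cell was at 0 in every group, the median cell was at 0 in KO CD4, WT CD4 and KO CD8 and at 124.2 FPKM in WT CD8, and the highest cell reached 984, 2455, 557 and 1227 FPKM in that order. It was detected in 47.2% of KO CD4 (36.5% to 58.1%), 44.7% of WT CD4 (33.9% to 55.9%), 41.9% of KO CD8 (31.3% to 52.99%) and 68.9% of WT CD8 cells (58.3% to 78.2%). The interval of WT CD8 began at 58.3%, just above the 58.1% at which that of KO CD4 ended, and lay above those of the other 3 groups, which overlapped each other. Of 4929 genes detected in at least 20% of cells of any group, 0.71% had a WT CD8 interval placed like this. In cells that had the transcript, the median was 188.9, 182.3, 174.7 and 242.1 FPKM in the same order, so the groups differed more in how many cells had it than in its level there.

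The endoplasmic reticulum has its own HSP70, Hspa5 or BiP, and its own HSP90, Hsp90b1 or GRP94, both classical targets of the unfolded protein response. Their promoters are shown because they are the 2 of the 7 genes with a matched promoter that hold an ERSE, the element of that response, which was searched as CCAAT and, 9 bases on, CCACG, on either strand. It was present in 37 of the 32851 promoter windows (0.113%), with 1 match before Hspa5 and 2, in opposite directions, before Hsp90b1. The stretches below come from RefSeq, GRCm38.p6, at chr2:34772020-34772049 (plus strand) and chr10:86705510-86705664 (minus strand), with the matches in capitals. The Hspa5 stretch lies before the RefSeq start site but overlaps an Hspa5 exon of GENCODE, where the gene starts at chr2:34771970.
Hspa5: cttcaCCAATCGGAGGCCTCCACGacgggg
Hsp90b1: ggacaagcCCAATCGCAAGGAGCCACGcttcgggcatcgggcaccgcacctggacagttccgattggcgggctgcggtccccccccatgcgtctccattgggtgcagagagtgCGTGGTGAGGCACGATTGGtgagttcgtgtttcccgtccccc

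Hspa5 was detected in 69.7% of KO CD4, 64.7% of WT CD4, 60.5% of KO CD8 and 72.2% of WT CD8 cells, with a median of 291.4 FPKM in KO CD4, 201.95 FPKM in WT CD4, 134.8 FPKM in KO CD8 and 241.6 FPKM in WT CD8. Hsp90b1 was detected in 55.1%, 54.1%, 63.95% and 70% of the same groups. On mean FPKM both were lowest in KO CD8, at 202.3 FPKM for Hspa5 and 139.9 FPKM for Hsp90b1. On mean log2(FPKM + 1) both were highest in WT CD8, while the lowest group was KO CD8 for Hspa5 (4.72) and WT CD4 for Hsp90b1 (3.82). Both were present in 41.6% of KO CD4, 43.5% of WT CD4, 41.9% of KO CD8 and 55.6% of WT CD8 cells.

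Hspd1 (HSP60) and Hspe1 (HSP10) form the folding chamber of mitochondria. Their genes lie head to head on chromosome 1, Hspd1 at chr1:55077835-55088243 (minus strand) and Hspe1 at chr1:55088132-55091307 (plus strand), so their ends overlap and reads from the overlap cannot be assigned without strand. RefSeq gives Hspd1 start sites at 55088243 and 55087932 and Hspe1 a start site at 55088148. The stretch before the start site of Hspe1, inside Hspd1 as annotated, holds 3 overlapping heat shock element cores (GRCm38.p6, chr1:55088053-55088082, plus strand, in capitals), and 2 or more cores were present in 1.46% of all promoter windows.
Hspe1: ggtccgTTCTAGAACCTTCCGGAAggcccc

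Hspe1 was detected in 28.1% of KO CD4 (19.1% to 38.6%), 32.9% of WT CD4 (23.1% to 43.98%), 44.2% of KO CD8 (33.5% to 55.3%) and 62.2% of WT CD8 cells (51.4% to 72.2%). The interval of WT CD8 lay above those of both CD4 groups, as it did for 3.43% of the 4929 genes, and overlapped that of KO CD8. Its median cell was at 0 in the first 3 groups and at 89.6 FPKM in WT CD8, and its highest cell reached 571 FPKM in KO CD4, 600 FPKM in WT CD4, 833 FPKM in KO CD8 and 1263 FPKM in WT CD8. Hspd1 was detected in 32.6%, 30.6%, 43.02% and 51.1% of cells in that order. In KO CD8, Hspd1 was detected in 44.7% of cells with Hspe1 (28.6% to 61.7%) and 41.7% of cells without it (27.6% to 56.8%). In KO CD4 it was detected in 14 of 25 cells with Hspe1 (34.9% to 75.6%) and in 23.4% of cells without it (13.8% to 35.7%). The shares in WT CD4 were 42.9% with Hspe1 (24.5% to 62.8%) and 24.6% without it (14.1% to 37.8%). Those in WT CD8 were 55.4% (41.5% to 68.7%) and 44.1% (27.2% to 62.1%).

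**Figure D3:**
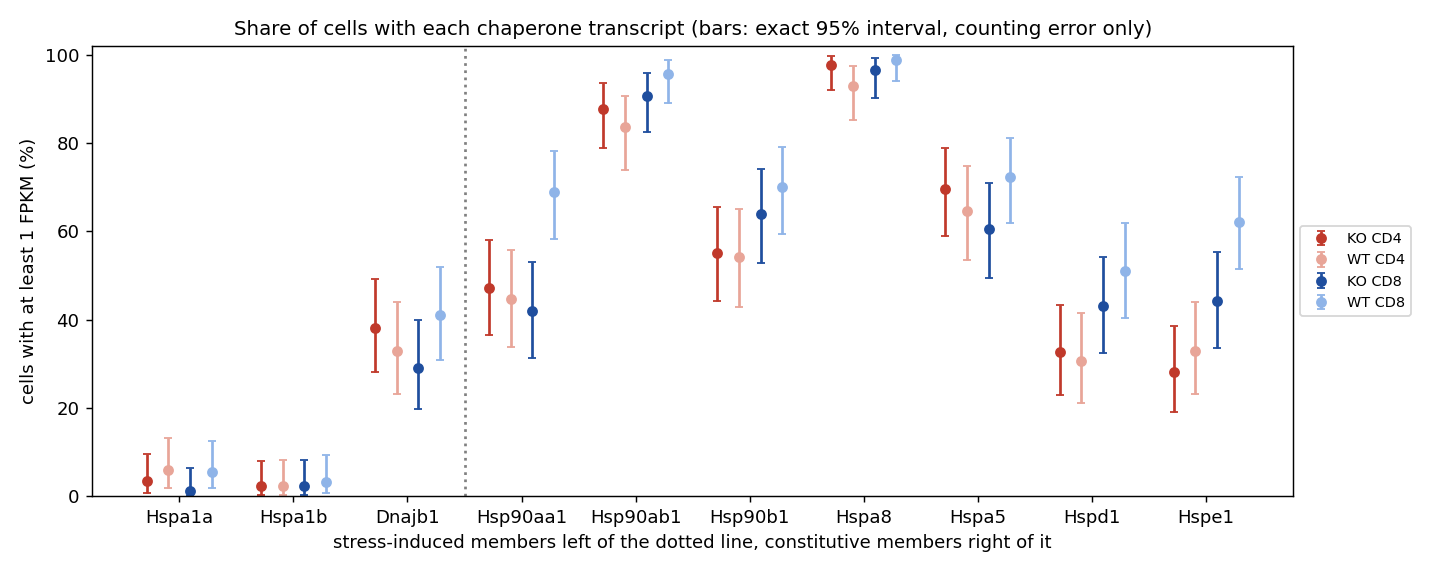
Share of cells (percent) with at least 1 FPKM of each chaperone in KO CD4, WT CD4, KO CD8 and WT CD8 cells, from left to right within each gene, with exact Clopper-Pearson 95% intervals that cover counting error only. The WT CD8 interval of Hsp90aa1 (58.3% to 78.2%) lay above those of the other 3 groups, and for the 8 members other than Hsp90aa1 and Hspe1 all 4 intervals overlapped.

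In the CD8 sort, all 10 chaperones were lower in cells labelled KO than in WT, and so were 78.7% of all measured genes. Hsp90aa1 differed most: its mean log2(FPKM + 1) was 2.89 ± 3.60 in KO CD8 and 5.21 ± 3.75 in WT CD8 (SD over 86 and 90 cells), a difference of -2.32. It averaged 79.9 FPKM in KO CD8 and 192.6 FPKM in WT CD8. Among 4686 measured genes, those detected in at least 20% of cells of either group, it had the 9th lowest difference, while the median gene stood at -0.40. Hspa5 followed with -1.42 and Hspe1 with -1.34. Dnajb1 stood at -0.88, Hsp90ab1 at -0.85, Hsp90b1 at -0.62, Hspd1 at -0.61 and Hspa8 at -0.27. Hspa1a and Hspa1b, at -0.48 and -0.16, were detected in too few cells to be measured by that rule.

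Against the fold used here, a difference of 1 on the log2 scale, 3 of the 8 measured chaperones were lower and 0 higher. Over all measured genes 13.3% were lower and 0.555% higher. The median over the 7 constitutive members was -0.85, and 6 of them lay below the median gene. The count rests on the scale and on detected genes. It was 5 with a pseudocount of 0.1 FPKM, and 1, Hsp90aa1, with a pseudocount of 10 FPKM and in bins of detected genes matched between the groups. Over all measured genes 30.8% were lower by 1 with a pseudocount of 0.1 FPKM, 1.79% with 10 FPKM and 3.20% in those bins.

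Cells were also set beside cells with a like number of detected genes, in 4 bins (1000 to 1499, 1500 to 1999, 2000 to 2999, and 3000 or more). Matching gave both groups the same share of cells in each bin, the share found in KO CD8 and WT CD8 cells together. Averaged over the matched bins Hsp90aa1 differed by -1.71, the lowest of the 10 members, while the median gene differed by -0.07. Dnajb1 differed by -0.91, Hspe1 by -0.58, Hspa5 by -0.39 and Hsp90ab1 by -0.21, and the remaining constitutive members by 0.10 to 0.23. From the lowest bin up, Hsp90aa1 differed by -5.68 (8 KO and 5 WT cells), -2.02 (40 KO and 26 WT cells), -0.50 (35 KO and 38 WT cells) and -2.41 (3 KO and 21 WT cells). In the bin of 2000 to 2999 genes Dnajb1 (-1.33), Hspe1 (-0.68) and Hsp90ab1 (-0.58) were lower than Hsp90aa1. Over the 2 middle bins alone, the ones with at least 10 cells in each group, the average of Hsp90aa1 was -1.22, that of Dnajb1 -0.89 and that of Hspe1 -0.87, a setting chosen after seeing the data. Hspa5 differed in sign between the middle bins, at -1.92 and 1.38. Among cells with at least 2000 detected genes Hspa5 was higher in KO CD8, by 0.48.

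**Figure D4:**
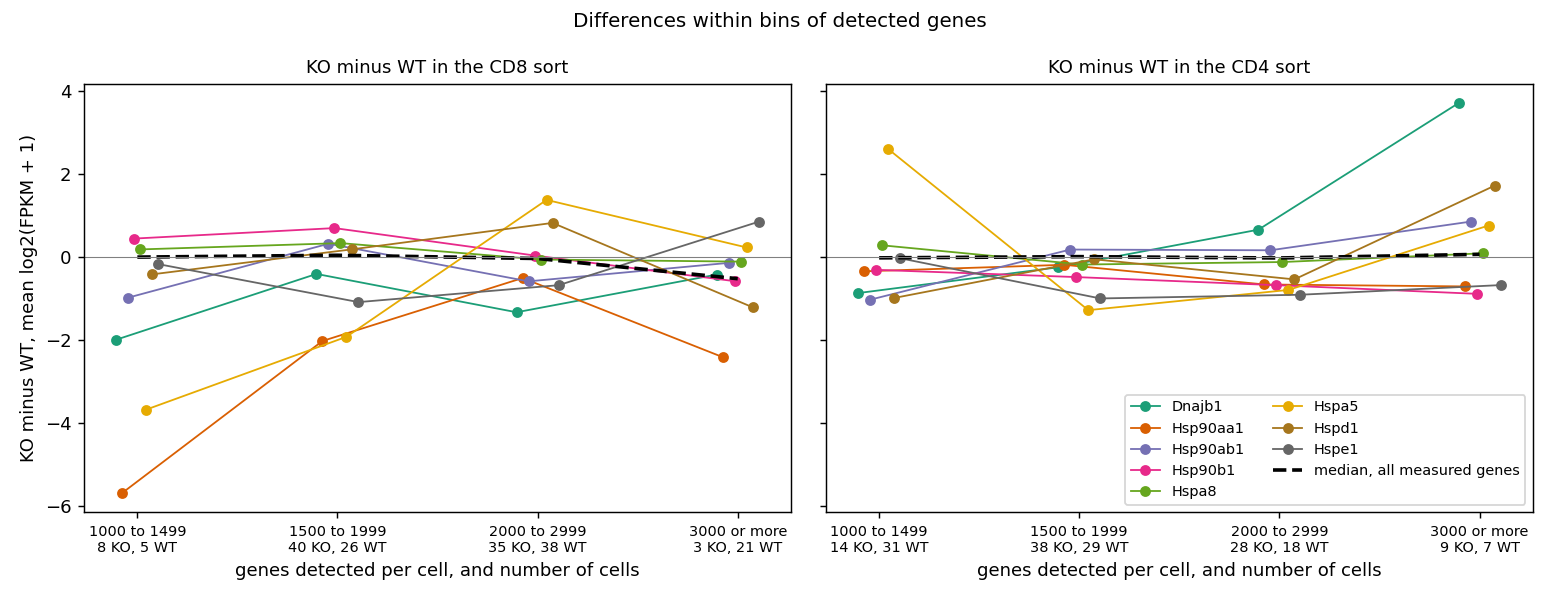
KO minus WT differences of mean log2(FPKM + 1) within bins of detected genes, for the CD8 sort on the left and the CD4 sort on the right, with cell numbers under each bin and the median of all measured genes as a dashed line. Hsp90aa1 was below 0 in all 4 bins of the CD8 sort, while Hspa5 was at -1.92 and 1.38 in the 2 middle bins.

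In the CD4 sort the chaperones differed little between genotypes. Dnajb1 was higher in cells labelled KO by 0.54, with a mean log2(FPKM + 1) of 2.80 ± 3.76 in KO CD4 and 2.26 ± 3.54 in WT CD4 (SD over 89 and 85 cells). Hspa8 was higher by 0.44, Hsp90ab1 by 0.43, Hspa5 by 0.36, Hspd1 by 0.25, Hsp90b1 by 0.21 and Hsp90aa1 by 0.13. Hspe1 stood at -0.48, Hspa1a at -0.22 and Hspa1b at -0.06. The median of 3864 measured genes was 0.23, so 4 of the 7 constitutive members lay above it. None of the 8 measured chaperones passed a difference of 1 in either direction, against 9.91% of all measured genes higher and 0.983% lower. In matched bins of detected genes the median over the constitutive members was -0.26, the median gene stood at 0.01, and Hspe1 at -0.69. Hsp90aa1, Hsp90ab1, Hsp90b1, Hspa8 and Hspd1, above 0 without matching, were below 0 with it. Hspe1 was below 0 both ways. Dnajb1 differed in sign between bins: from the lowest bin up it stood at -0.87 (14 KO and 31 WT cells), -0.25 (38 and 29), 0.66 (28 and 18) and 3.71 (9 and 7). Without the top bin, which has fewer than 10 cells in each group, its average was -0.16.

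Of the 10 members, 7 had opposite signs in the 2 sorts, among them 7 of the 8 measured ones. Of 3621 genes measured in both sorts, 59.5% had opposite signs. Hspe1, Hspa1a and Hspa1b were lower in KO in both. The comparison of sorts within a genotype uses the same 4 groups as the comparison of genotypes, so its values are not separate evidence.

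Between the sorts, CD4 cells held less of most constitutive chaperones than CD8 cells, above all in WT. In WT the difference of mean log2(FPKM + 1), CD4 minus CD8, was -2.16 for Hspe1, -1.94 for Hsp90aa1, -1.66 for Hspd1, -1.52 for Hsp90ab1 and -1.35 for Hsp90b1. Those 5 of 8 measured chaperones passed a difference of 1, against 23.4% of 4729 measured genes lower and 1.54% higher, with the median gene at -0.53. Hspa8 stood at -0.86, Dnajb1 at -0.74 and Hspa5 at -0.55. In matched bins of detected genes, Hsp90aa1 (-1.35) and Hspe1 (-1.26) were past 1, Hspd1 stood at -0.52, Hspa8 at 0.14, Hsp90b1 at 0.35 and Hspa5 at 0.36. Of all measured genes 5.22% were lower by 1 and 6.66% higher in those bins. The value of Hsp90aa1 rests on the lowest bin: from there up it stood at -5.04 (31 WT CD4 and 5 WT CD8 cells), -1.08, 0.28 and -0.40. Over the 2 bins with at least 10 cells in each group Hsp90aa1 averaged -0.39, Hspe1 -1.45 and Hspa5 1.23. Among cells with at least 2000 detected genes Hsp90aa1 stood at -0.18.

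In KO cells the sorts were closer. Hspe1 was again lower in CD4, by -1.30, with a mean log2(FPKM + 1) of 1.94 ± 3.25 in KO CD4 and 3.24 ± 3.78 in KO CD8 (SD over 89 and 86 cells). Hspa5 was higher in CD4, by 1.22, with 5.94 ± 4.08 in KO CD4 and 4.72 ± 4.07 in KO CD8. Of 3956 measured genes 4.55% were lower and 8.24% higher by 1, with the median gene at 0.03, so 1 of 8 chaperones passed in each direction. Among cells with at least 2000 detected genes the value of Hspa5 was -0.75. Hspd1 stood at -0.80, Dnajb1 at 0.68, Hsp90b1 at -0.53, Hsp90aa1 at 0.52, Hsp90ab1 at -0.24 and Hspa8 at -0.15. Hspe1 was below 0 in each of 13 settings for the CD4 and CD8 difference in KO cells, from -2.02 to -0.76.

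**Figure D5:**
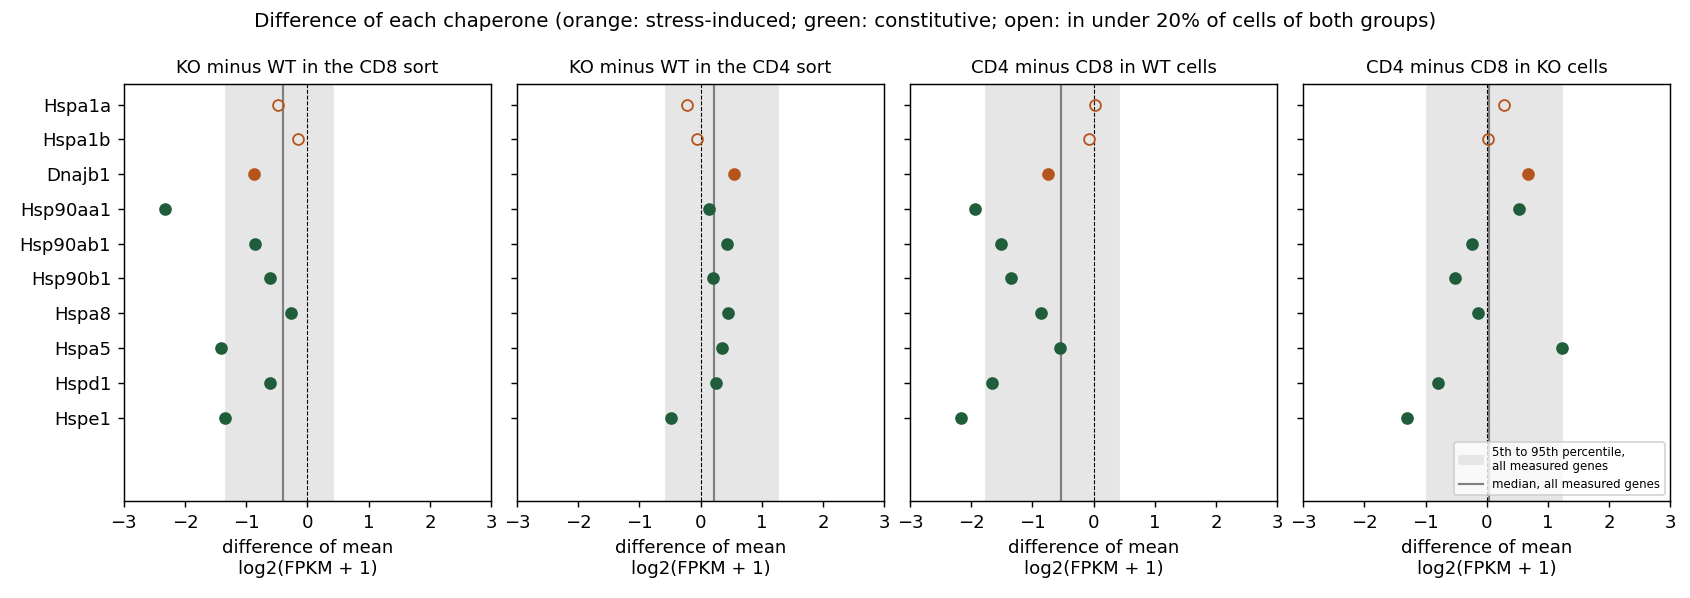
Difference of mean log2(FPKM + 1) of each chaperone in 4 comparisons, with the 5th to 95th percentile of all measured genes in grey and their median as a grey line; orange points are stress-induced and green points constitutive members, and open points were detected in under 20% of cells of both groups. Hsp90aa1 (-2.32) lay furthest below the grey band in the CD8 sort, and no member left it in the CD4 sort.

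The other genes of the folding machinery were counted against the same fold. In the CD8 sort the chaperonin TRiC, which folds actin and tubulin, with prefoldin, which hands them over, had 7 of 12 measured genes lower by 1 in KO and 0 higher. Cct3 differed by -2.08 (detected in 41.9% of KO CD8 and 64.4% of WT CD8 cells), Cct2 by -2.05 and Cct6a by -1.94. The list of other cytosolic chaperones and co-chaperones had 8 of 20 lower and 0 higher, led by the HSP90 co-chaperone Nudc (-1.98), the HSP70 partner St13 (-1.62) and the J-domain gene Dnajc8 (-1.58). Both shares lie above the 13.3% of all measured genes. The list counts here and below were not matched for detected genes. In matched bins 3.20% of all measured genes were lower by 1 in this sort, and the lists were not counted there.

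The lists of the endoplasmic reticulum and of mitochondria also had larger shares than the 13.3% of all measured genes. Of 19 measured genes of the endoplasmic reticulum and its unfolded protein response, 5 were lower by 1, among them the disulfide isomerases P4hb (-1.82) and Pdia3 (-1.77) and the lectin chaperone Calr (-1.69), and their median of -0.34 lay above that of all genes. Of 11 genes of mitochondrial protein quality control 3 were lower by 1: the mitochondrial HSP70 Hspa9 (-1.24), the protease subunit Afg3l2 (-1.12) and the HSP70 exchange factor Grpel1 (-1.04). Hsf1, which encodes the heat shock factor itself, differed by -0.17, and Hsbp1, which encodes a protein that binds it, by -1.04. Of 13 immediate early genes 2 were higher by 1, Ppp1r15a (1.18) and Btg2 (1.09), and 0 lower.

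In the CD4 sort the lists were read against the 9.91% of all measured genes higher by 1. Of 17 other cytosolic chaperones 3 were higher by 1 in KO, the J-domain genes Dnaja1 (1.40) and Dnaja2 (1.15) and the kinase-loading HSP90 partner Cdc37 (1.36), and 0 lower. TRiC and prefoldin had 0 of 11 past 1 in either direction. The endoplasmic reticulum list had 2 of 18 higher, Sec61b (1.45) and P4hb (1.24), and mitochondrial quality control had 0 of 8. Immediate early genes stood apart with 7 of 14 higher, among them Ier2 (2.51) and Nr4a1 (2.26), and 1 lower, Socs3 (-3.07). Of these 14 genes 11 were above 0 and 3 below, and Dnajb1 was above 0 in this sort as well. Whether they vary with Dnajb1 from cell to cell was not tested, nor was their part in its difference.

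The chaperones were also set against the state of the cells. Among CD8 cells with at least 2 of the 4 inhibitory receptors Pdcd1, Havcr2, Lag3 and Tigit, Hsp90aa1 had a mean log2(FPKM + 1) of 2.32 in 23 KO CD8 cells and 6.42 in 39 WT CD8 cells, a difference of -4.10. All 10 members were lower in KO in this state, with a median of -1.24, as were 83.2% of 6046 genes measured there, with a median of -0.76. With fewer than 2 of the receptors Hsp90aa1 had 3.10 in 63 KO CD8 cells and 4.29 in 51 WT CD8 cells, a difference of -1.19, and 7 of 10 members were lower, with a median of -0.37, against 50.7% of 3831 genes and a median of -0.01. In the state with receptors the median number of detected genes was 1984 in KO CD8 and 3024 in WT CD8 cells, against 1950 and 1993 in the other state, and the part of this gap in the result was not tested.

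In the CD4 sort, cells with Foxp3, the factor that defines regulatory T cells, numbered 35 in KO and 46 in WT. Hsp90b1, which folds integrins and Toll-like receptors, was higher in cells with Foxp3 than in those without by 1.08 in KO CD4 and 1.07 in WT CD4. In KO CD4, 8 of 10 members were higher with Foxp3, as were 80.1% of measured genes. In WT CD4, 8 of 10 were lower, among them Hsp90ab1 (-0.56), Dnajb1 (-0.46) and Hspa8 (-0.35), while 71.3% of measured genes were higher. Cells with Foxp3 also had more detected genes, 2152 against 1747 in KO CD4 and 1884 against 1547 in WT CD4 as medians. Between genotypes, 1 of 10 members was lower in KO among cells with Foxp3, against 27.6% of measured genes, and 7 of 10 among cells without it, against 37%. The members' medians were 0.59 and -0.20 in these states, and those of all measured genes 0.42 and 0.21.

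From cell to cell the chaperones moved together only weakly. After centring within groups and removing the linear part of detected genes, the 21 pairs of constitutive members had Pearson r between 0.02 and 0.24 over 350 cells, with a median of 0.09. Hspa1a and Hspa1b had r = 0.78, where sequence shared by both can place the same reads in each. The raw values followed detected genes, with r from 0.23 for Hspe1 to 0.43 for Hsp90b1 among constitutive members and from 0.01 for Hspa1a to 0.11 for Dnajb1 among the stress-induced ones. Of 3391 genes detected in at least 20% of cells, those most like the mean of the stress-induced members were Hsph1 (r = 0.32), Phlda1 (0.29), Taf9 (0.21), Sco1 (0.21) and Hdgf (0.19). Those most like the mean of the constitutive members were the elongation factor Eef1a1 (0.32) and the ribosomal protein genes Rps7 (0.29), Rpl4 (0.29), Rpl3 (0.27) and Rpl8 (0.27). These values are over cells that share libraries and depth, and weak correlations in such sparse data describe these cells and no more.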

How the data were processed

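Single T cells were profiled by Smart-seq2, which makes full-length cDNA from 1 cell. Per the labels' protocols, RNA was captured on beads and cDNA amplified over 21 cycles and libraries were made with Nextera XT. The values are gene-level FPKM that the authors deposited after TMM normalization between cells, from Bowtie and RSEM on mm10 per the submitters' processing notes, with versions not given there. Of 375 columns, 4 named as populations were not used, and 4 entries with repeated symbols were left out of 23366 genes.

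Group values are means over cells of log2(FPKM + 1), so a difference follows the share of cells at 0 as well as the level. The added 1 shrinks differences between values near 1 FPKM or below. A difference can be larger or smaller than the log2 ratio of mean FPKM. In the CD8 sort Hsp90aa1 differed by -2.32, with means of 79.9 FPKM in KO and 192.6 FPKM in WT. Hspa1a differed by -0.48 there, with means of 1.22 FPKM in KO and 141.7 FPKM in WT. A gene was measured where it reached 1 FPKM in at least 20% of cells of either group. With 1 pool per group there was no test. Shares carry exact Clopper-Pearson 95% intervals. The scripts (Python 3.11.15, numpy 2.4.6, pandas 2.3.3, scipy 1.17.1) were tested on simulated data. Depth was read from the step that 1 read gives at each transcript's length, over 3808 genes: 27.7% to 29.4% of low values lay near a step, against 14.5% to 15.5% with lengths shuffled. The highest correlation between 2 cells was 0.687, and no 2 cells were identical. The settings varied were the pseudocount, the filters on cells and on low values, the detection level, rescaling, detected genes and the markers required of a cell. Named in the text are the 10 members, up to 3 genes per list and sort with the largest differences, and the 5 most like genes per class. The comparison of cells with and without Hspa1a or Hspa1b also names Hsph1 and Fos. The members, lists and rules were chosen with earlier results of these data known. Sequences are from RefSeq and gene positions from GENCODE, both on GRCm38.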

Additional observations from a re-analysis of the deposited data

Results flagged for a closer look

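Dnajb1, the inducible J-domain partner of HSP70, differed in opposite directions in the 2 sorts. So did 59.5% of 3621 genes measured in both, and the median gene stood at -0.40 in the CD8 sort and 0.23 in the CD4 sort. For Dnajb1 the difference of mean log2(FPKM + 1), KO minus WT, was -0.88 in the CD8 sort and 0.54 in the CD4 sort. The first was below 0 in each of 13 settings and the second above 0 in 12 of 13. The exception, -0.16, leaves out bins of detected genes with fewer than 10 cells in a group and was chosen after seeing the data. In the CD4 sort its values in the 4 bins were -0.87, -0.25, 0.66 and 3.71, from the lowest bin up. Averaged over the matched bins its difference was 0.20 in that sort. It was detected in 29.1% of KO CD8 and 41.1% of WT CD8 cells, and in 38.2% of KO CD4 and 32.9% of WT CD4 cells. The difference between the sorts was not tested, since each group was treated as 1 pool of cells.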

How the results depend on the processing

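For the main results 38 alternative values moved. Of 480 for single members, 69 (14.4%) changed sign, of which 4 belong to the 120 whose reported difference was at least 1. Bins of detected genes with at least 10 cells in each group, here large bins, were chosen after seeing the data. The cause of the moves was not tested. In the CD8 sort, KO minus WT, the constitutive median (-0.85) was -1.01 with a pseudocount of 0.1 FPKM and -0.21 with matched bins and -0.15 with large bins. The count of members lower by 1 was 5 with a pseudocount of 0.1 FPKM and 1 with a pseudocount of 10 FPKM, at least 2000 genes, matched bins, large bins, or a log2 ratio of mean FPKM, under which the stress-induced median was -2.91. Over all measured genes the share lower by 1 was 30.8% with a pseudocount of 0.1 FPKM and 1.79% with 10 FPKM. It was 18.2% at 2000 genes, 3.20% with matched bins, 2.62% with large bins and 10.3% with the ratio. In the CD4 sort the constitutive median (0.25) was -0.42 at 1500 genes, -0.49 at 2000 genes, -0.26 with matched bins and -0.37 with large bins, and members higher by 1 numbered 1 at 2000 genes and 2 with lineage transcripts required. The shares of all measured genes higher by 1 were 8.06% at 2000 genes and 13.8% with lineage transcripts required. In WT, CD4 minus CD8, the constitutive median (-1.52) was -0.99 with a pseudocount of 10 FPKM, -0.90 at 1500 genes, -0.23 at 2000 genes, -0.52 with matched bins, -0.15 with large bins and -0.44 as a log2 ratio of mean FPKM. Members lower by 1 there numbered 3 with a pseudocount of 10 FPKM, 2 at 1500 genes, 2 at 2000 genes, 2 with matched bins, 1 with large bins and 1 with the ratio, and 1 was higher by 1 with large bins. In KO, CD4 minus CD8, members lower by 1 numbered 2 with a pseudocount of 0.1 FPKM, 0 with 10 FPKM, 0 with the ratio and 3 without Foxp3 cells. Of all measured genes 10.6%, 1.24%, 5.61% and 8.28% were lower by 1 in these settings, in that order. Members higher by 1 were 0 with 10 FPKM, with the ratio, with large bins and without the 74 cells that had other cells' markers. The shares of all measured genes higher by 1 were 2.43%, 11.4%, 8.57% and 10.9%, in that order. The stress-induced median there was 1.06 with the ratio. The 4 that changed sign from at least 1 were Hspa5 in the CD8 sort at 2000 genes (0.48), Hspa5 between sorts in KO at 2000 genes (-0.75) and Hsp90b1 between sorts in WT with matched bins (0.35) and large bins (0.33). Hsp90aa1 in the CD8 sort ran from -3.19 to -1.22 over 13 settings. No paired analysis was possible because each group was treated as 1 sample, and the numbers that titles share across groups are the same in all of them or follow the sort, so they pair no cells. Near 1 read per FPKM, a value of 0 does not show absence.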
